A study of Rattus norvegicus with 12 samples.

Results

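The contractile genes of smooth muscle and pericytes were read from the hematoma of the osteotomy gap, and most of them had their highest mean signal in old rats with rigid fixation. The set held 10 genes of the 14217 genes with a probe set of their own, and 19 probe sets of the 31042 tested. The genes were Myh11, Cnn1, Lmod1 and Actg2 of mature smooth muscle, Acta2, Tagln, Myl9 and Tpm1, which smooth muscle shares with myofibroblasts, and Pdgfrb and Rgs5 of pericytes. A probe set was taken when the platform annotation gave it exactly 1 of these symbols, and each gene was described by its brightest probe set, whereas all 7 probe sets of Tpm1 were kept. Samples were taken on day 3 from female Sprague-Dawley rats whose femur had an osteotomy gap of 1.5 mm under an external fixator. The groups were old semi-rigid (OSR), old rigid (OR), young semi-rigid (YSR) and young rigid (YR), with old rats of 52 weeks, young rats of 12 weeks, and an offset between bone and fixator of 15 mm for semi-rigid and 7.5 mm for rigid fixation. Each group had 3 arrays, and each array held the pooled RNA of 3 animals, so that the spread between arrays was that between pools. No group was left without an osteotomy.

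Smooth muscle cells contract when myosin pulls on filaments of smooth muscle actin, and their contractile genes share control by serum response factor and its cofactors. Pericytes wrap capillaries and small vessels and carry the receptor for platelet-derived growth factor B. After injury, fibroblasts and pericytes can turn into myofibroblasts, which make smooth muscle actin together with matrix and pull the wound together, but usually lack the late markers of mature smooth muscle such as smooth muscle myosin. The tissue is a mixture, and fewer cells of a type and less RNA per cell cannot be told apart in its signals.

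The promoter of Acta2 (smooth muscle alpha actin) is shown because serum response factor is known to act there through CArG boxes. The stretch runs from 150 to 51 bases before the annotated start on the minus strand, at chr1:241172554-241172653 of the GRCr8 assembly (sequence from RefSeq), with capitals on matches to the CArG box that allow 1 substitution in its core.
Acta2: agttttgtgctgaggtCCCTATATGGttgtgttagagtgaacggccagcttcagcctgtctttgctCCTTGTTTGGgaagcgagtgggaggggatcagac
Both boxes were matches with 1 substitution, and they began 134 and 84 bases before the start. Promoter sequences were at hand for 5 of the 10 genes (Acta2, Actg2, Cnn1, Tpm1 and Rgs5). An exact CArG box within 250 bases before the start was found in 0 of these 5, and in 1.50% of 33469 rat promoters. With 1 substitution in the core allowed, the promoter of Acta2 alone of the 5 had a match, against 8.08% of all promoters. The motif reads the same on both strands. Neither count says whether the factor binds elsewhere at these genes.

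Mature smooth muscle genes, pericyte genes and 3 of the 4 genes shared with myofibroblasts were higher in old rigid than in young rigid hematoma in the group means. None of the 10 passed the adjusted test. Groups were compared with limma on log2 signals. All 31042 probe sets entered the Benjamini-Hochberg adjustment, and genes with an adjusted p under 0.05 count as called. Between OR and YR, 0 of the 10 genes were called, against 0.00322% of all probe sets. At an unadjusted p under 0.05, 8 of the 10 were higher in OR than in YR and 0 lower, against 4.8% of all probe sets higher and 3.54% lower. Among all probe sets at or above the median signal (7.16 on the log2 scale), to which 8 of the 10 genes belonged, 5.36% were higher. With the test named in the study's methods in place of limma, 0 were called and 4 were higher at an unadjusted p under 0.05. The share of all probe sets with that test is not given. For 7 of the 10 genes every OR array lay above every YR array, which was the case for 7.75% of all probe sets. The median log2 difference between OR and YR was 0.95 over the 10 genes, and 0.04 over all probe sets. OR had the highest mean of the 4 groups for 8 of the 10 genes, whereas 30.2% of all probe sets had their highest mean there. The 10 genes were chosen with earlier results of these data known, and the study's interaction genes from these arrays include Pdgfrb and Tpm1. Here and below, the shares of all probe sets are therefore a description, not an independent test.

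Between both old groups and both young groups, 6 of the 10 genes were higher in old rats at an unadjusted p under 0.05, against 4.7% of all probe sets higher and 3.89% lower, with 0 called by limma after adjustment (0.00644% of all probe sets). The median difference was 0.58 over the 10 genes and 0.02 over all probe sets. In semi-rigid fixation alone the age difference was smaller in the means, with a median of 0.22 for OSR minus YSR and 0 genes called (0.00322% of all probe sets), and 1, Cnn1, higher at an unadjusted p under 0.05 (2.03% of all probe sets). Whether the age differences differed between fixations is the same test as the interaction given with fixation.

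**Figure D1:**
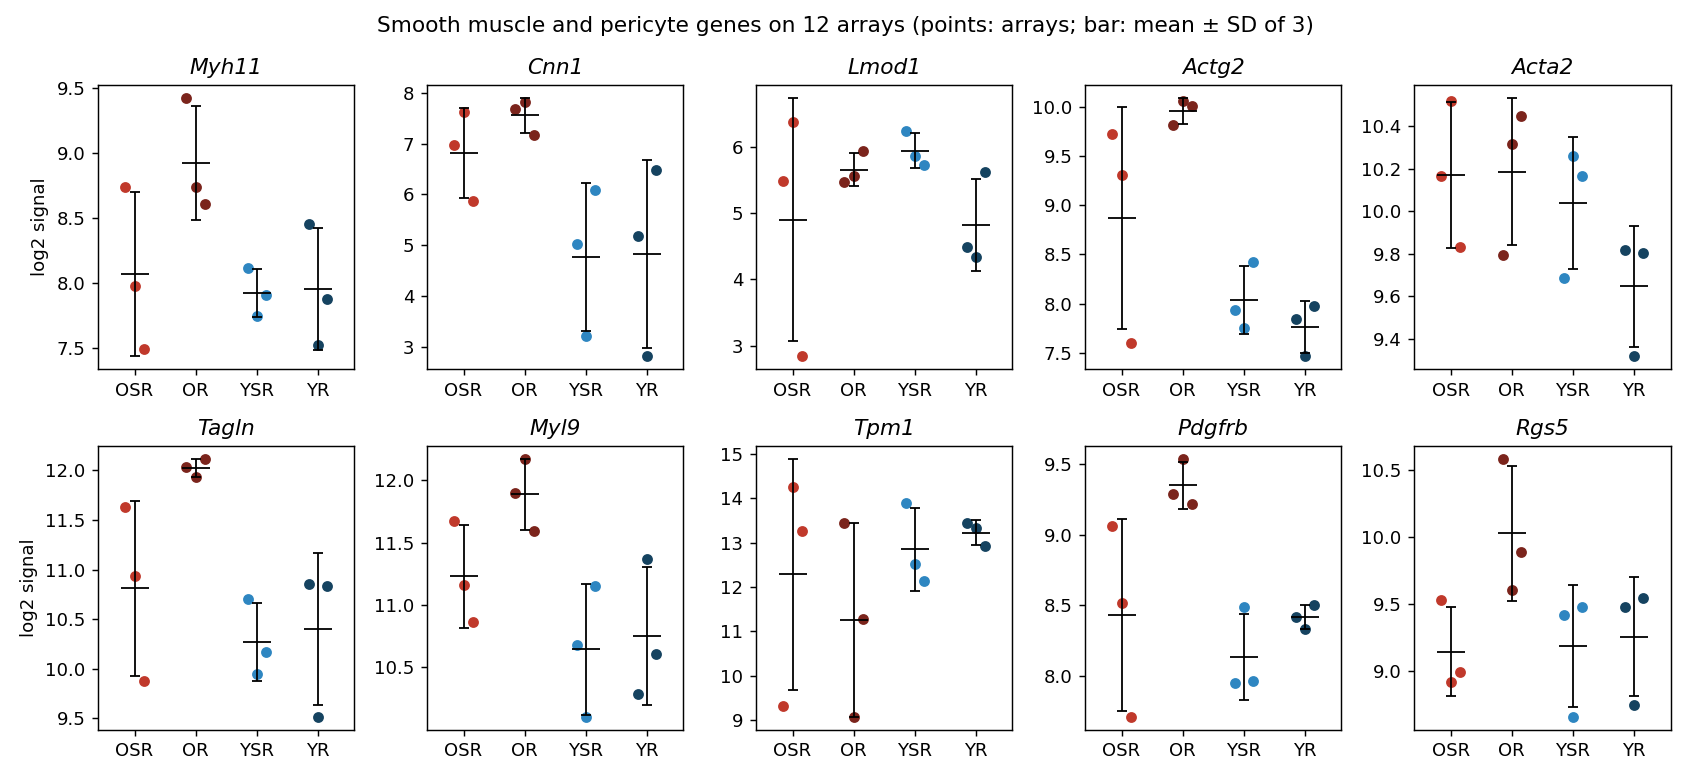
The log2 signal (vertical axis, scaled to each gene) of the brightest probe set of each gene in the OSR, OR, YSR and YR groups, with 1 point per array and a bar for the mean ± SD of 3 arrays. For Tagln, Actg2, Pdgfrb and Rgs5 the 3 OR points lie above all points of the YR group, and the Tpm1 points of the OSR and OR groups are spread most widely.

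Actg2 (smooth muscle gamma actin, chromosome 4, 117579513 to 117604379 on GRCr8, as for all positions below) had the smallest unadjusted p of the 10 genes between OR and YR. Its signals were 847, 632 and 193 in the OSR arrays and 900, 1072 and 1028 in the OR arrays, against 244, 216 and 344 in the YSR arrays and 230, 177 and 252 in the YR arrays. All OR arrays were above all others, and OSR array 3 lay within the range of the young arrays. On the log2 scale the means were 8.88 ± 1.13 in OSR, 9.96 ± 0.13 in OR, 8.04 ± 0.35 in YSR and 7.76 ± 0.26 in YR (SD, n = 3 each). OR exceeded YR by 2.20 (standard error 0.42, adjusted p = 0.203 from limma), a fold of 4.59. Averaged over fixation, old exceeded young by 1.52 (standard error 0.30, adjusted p = 0.145). This gene was called when OSR array 3 was left out. The adjusted p from limma was then 0.00872 for OR against YR and 0.00405 for old against young. That array belongs to neither OR nor YR, so OR minus YR stayed at 2.20, while its standard error, shared over the groups, fell from 0.42 to 0.22. Over all alternatives the adjusted p for OR against YR lay between 0.00872 and 0.613.

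Cnn1 (calponin 1, an inhibitor of actin-activated myosin, chromosome 8, 28908437 to 28917099) had a dim probe set with a wide spread in young rats. The OSR arrays had signals of 125, 197 and 58.5 and the OR arrays 206, 224 and 143, whereas the YSR arrays had 32.5, 9.3 and 68.1 and the YR arrays 36.2, 7.1 and 89.4. OR lay above YR and YSR in every array, and OSR array 3 lay within the young range. On the log2 scale OR minus YR was 2.72 (standard error 0.90, adjusted p = 0.421 from limma), while OSR exceeded YSR by 2.04 (standard error 0.90, adjusted p = 0.959). Old minus young was 2.38 (standard error 0.64, adjusted p = 0.28). The SD reached 1.85 in YR and 1.45 in YSR, against 0.35 in OR, so that low signals in young rats weighed on these differences.

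Myh11 (smooth muscle myosin heavy chain, chromosome 10, 1250554 to 1345681), the marker most specific to mature smooth muscle, had signals of 428, 252 and 180 in OSR, 688, 427 and 390 in OR, 278, 215 and 240 in YSR, and 351, 184 and 235 in YR at its brighter probe set. OR and YR did not overlap, while OSR array 1 was level with the middle OR array. The log2 difference OR minus YR was 0.97 (standard error 0.34, adjusted p = 0.463 from limma), while old minus young was 0.56 (standard error 0.24, adjusted p = 0.542). Its other probe set was dim, with signals from 2.3 to 45.5 over the 12 arrays, and differed between old and young by 1.17 (standard error 0.68, adjusted p = 0.659).

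Lmod1 (leiomodin 1, which nucleates actin filaments in smooth muscle, chromosome 13, 49305693 to 49347970) was dim, and its order of means was unlike that of the other mature genes. Signals were 44.7, 82.9 and 7.2 in OSR, 44.2, 47.0 and 61.0 in OR, 75.2, 57.9 and 52.9 in YSR, and 22.5, 20.3 and 48.9 in YR. Its highest mean was in YSR, OSR array 3 was the lowest of all, and neighbouring groups in the order of means overlapped. Old minus young was -0.10 (standard error 0.55, adjusted p = 0.971 in limma), but its sign turned without OSR array 3, when it was 0.41. For OR minus YR it was 0.83 (standard error 0.78, adjusted p = 0.831) and for OSR minus OR -0.75 (standard error 0.78, adjusted p = 0.926), which had the signs of Myh11, Cnn1 and Actg2, although OSR minus OR was 0.28 without OSR array 3. Both Cnn1 and Lmod1 had a mean signal under the median of all probe sets.

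Tagln (transgelin, or SM22, an actin-binding protein of smooth muscle and myofibroblasts, chromosome 8, 55121647 to 55127121) separated OR from every other group. The signals were 3160, 1958 and 938 in OSR and 4174, 3896 and 4436 in OR, against 1670, 985 and 1148 in YSR and 1847, 733 and 1822 in YR. No OR array overlapped with another group, and the other groups overlapped with each other. Log2 means were 10.81 ± 0.88 in OSR, 12.02 ± 0.09 in OR, 10.27 ± 0.39 in YSR and 10.40 ± 0.76 in YR (SD, n = 3 each). OR minus YR was 1.62 (standard error 0.41, adjusted p = 0.303 in limma), against 1.08 for old minus young (standard error 0.29, adjusted p = 0.282).

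Myl9 (the regulatory light chain of smooth muscle and nonmuscle myosin, chromosome 3, 165742020 to 165748409) had signals of 3264, 2282 and 1860 in OSR, 3805, 4602 and 3091 in OR, 1636, 1101 and 2275 in YSR, and 1249, 2638 and 1557 in YR. The lowest OR array exceeded the highest young array, whereas OSR overlapped with OR, YSR and YR. On the log2 scale OR minus YR was 1.13 (standard error 0.31, adjusted p = 0.322 from limma), while old exceeded young by 0.86 (standard error 0.22, adjusted p = 0.256). Megakaryocytes and platelets also make this light chain, and the summed level of a platelet list is given with the other lists.

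Acta2, the usual marker of myofibroblasts (chromosome 1, 241159723 to 241172503), had smaller differences in the means than Tagln and Myl9. Its signals were 1149, 1465 and 910 in OSR, 887, 1274 and 1399 in OR, 822, 1228 and 1150 in YSR, and 902, 638 and 893 in YR. All 4 groups overlapped with their neighbours in the order of means (OR, OSR, YSR, YR). OR minus YR was 0.54 (standard error 0.23, adjusted p = 0.57 from limma), old minus young 0.34 (standard error 0.16, adjusted p = 0.604), and the group means of OSR and OR were 10.17 ± 0.34 and 10.19 ± 0.35 (log2, SD, n = 3 each). Whether Acta2 differed less than Tagln or Myl9 was not tested.

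Pdgfrb (the receptor by which pericytes respond to platelet-derived growth factor B, chromosome 18, 56770348 to 56809228) was measured by 3 probe sets. At the brightest, signals were 534, 367 and 210 in OSR and 625, 743 and 595 in OR, against 247, 359 and 250 in YSR and 342, 323 and 363 in YR. OR did not overlap with any other group, and the YR arrays lay close together. The log2 difference OR minus YR was 0.93 (standard error 0.29, adjusted p = 0.375 from limma), while old minus young was 0.61 (standard error 0.20, adjusted p = 0.387). The second probe set gave 1.14 for OR minus YR and 1.09 for old minus young (adjusted p = 0.535 and 0.328) and 1.03 for OSR minus YSR (adjusted p = 0.959), and the third, dim one 0.39 for old minus young (adjusted p = 0.855). The study counted the brightest probe set among its genes with an interaction on these arrays, so that its pattern is not independent evidence.

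Rgs5 (a regulator of G protein signalling that marks pericytes, chromosome 13, 84381077 to 84417875) had signals of 740, 483 and 510 in OSR, 1539, 779 and 950 in OR, 685, 404 and 713 in YSR, and 715, 430 and 748 in YR. Every OR array lay above all others, and OSR, YSR and YR overlapped. Log2 means were 9.15 ± 0.34 in OSR, 10.03 ± 0.50 in OR, 9.19 ± 0.46 in YSR and 9.26 ± 0.44 in YR (SD, n = 3 each). OR minus YR was 0.77 (standard error 0.31, adjusted p = 0.542 from limma), while old exceeded young by 0.37 (standard error 0.22, adjusted p = 0.664).

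When the members of each class were averaged on the log2 scale, the OR arrays did not overlap with the YR arrays in 2 of the 3 classes. These means reuse the values counted gene by gene above, and no share over all probe sets is given for means of lists. Of the lists described below, the endothelial, matrix, adipocyte and further pericyte means also lay higher in OR without overlap with YR. The further pericyte mean was 7.95 to 8.17 in OR, against 7.60 to 7.82 in YR. In the other lists OR and YR overlapped. The mature smooth muscle mean lay between 7.93 and 8.10 in OR, against 5.54 to 6.99 in YR, with 5.95 to 7.82 in OSR and 6.14 to 7.04 in YSR. For both pericyte genes the mean lay between 9.55 and 9.94 in OR, against 8.54 to 9.03 in YR, with 8.35 to 9.30 in OSR and 8.57 to 8.72 in YSR. The 4 genes shared with myofibroblasts overlapped (10.87 to 11.79 in OR, against 10.88 to 11.10 in YR), but Acta2, Tagln and Myl9 without Tpm1, a subset chosen after the values had been seen, lay between 11.24 and 11.47 in OR, against 10.07 to 10.41 in YR. OSR was the widest group, with 10.19 to 11.15 for these 3 genes and 10.10 to 10.50 in YSR.

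RNA quality differed between arrays of these groups. Degraded RNA raises the signal at the 3' end of a transcript over that at its 5' end, and for Gapdh this ratio (log2) was 2.95 in OR array 1 and 6.69 in YSR array 1, between 1.02 and 1.59 in the YR arrays, and between 0.33 and 0.49 in all others. Its part in the differences was not tested. Without OR array 1 and YSR array 1, left out after their ratios were known, 6 of the 10 genes were higher in OR than in YR at an unadjusted p under 0.05, and 6 in old than in young rats. The OR arrays left had Gapdh ratios of 0.43 and 0.46, under every YR array. Group and RNA quality therefore cannot be told apart in OR minus YR of that fit. Without YR array 2, the lowest of its group for Acta2, Actg2, Cnn1, Lmod1, Myh11, Pdgfrb, Rgs5 and Tagln, 4 of the 10 were higher in OR than in YR at that level. For these fits the share of all probe sets at that level is not given.

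In old rats, semi-rigid fixation had lower means than rigid fixation for 9 of the 10 genes, with a median log2 difference (OSR minus OR) of -0.80, and -0.01 over all probe sets. limma called 0 of the 10 (0% of all probe sets), and 5 were lower in OSR at an unadjusted p under 0.05, against 2.83% of all probe sets. For 4 genes every OSR array lay below every OR array, against 5.74% of all probe sets. The 5 genes were Tagln with a difference of -1.21 (standard error 0.41), Actg2 with -1.09 (standard error 0.42), Pdgfrb with -0.92 (standard error 0.29), Rgs5 with -0.88 (standard error 0.31) and Myh11 with -0.86 (standard error 0.34), each with an adjusted p of 0.896 or 0.901 from limma. These comparisons share the OR arrays with OR minus YR, where the same genes differed by 1.62, 2.20, 0.93, 0.77 and 0.97. The dimmer probe sets of Pdgfrb gave -0.30 and -0.69 for OSR minus OR (adjusted p = 0.949 and 0.927 from limma). Without OSR array 3, the lowest old array for Actg2, Cnn1, Lmod1, Myh11, Myl9, Pdgfrb and Tagln, 2 of the 10 were lower in OSR at that level, and without OSR array 2, without OR array 1 or without both arrays of high Gapdh ratio 3 were. For these fits the share of all probe sets is not given. Lower means in OSR were shared by 10 of 13 further pericyte genes, 11 of 14 matrix genes and every endothelial gene measured (lists below). Of 17 further contractile genes 10 were higher in OSR, as were 48.8% of all probe sets.

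In young rats the same contrast was small in the median, with differences of single genes from -0.38 to 1.12 (Lmod1). YSR minus YR had a median of -0.06 over the 10 genes (0.02 over all probe sets), with 0 genes called by limma (0% of all probe sets) and 0 at an unadjusted p under 0.05 in either direction, against 2.77% of all probe sets higher and 1.6% lower. Lmod1 was the only gene with every YSR array above every YR array (5.73% of all probe sets). Averaged over age, semi-rigid minus rigid was -0.67 for Tagln (standard error 0.29), -0.60 for Pdgfrb (standard error 0.20) and -0.48 for Rgs5 (standard error 0.22, adjusted p = 0.845 for each in limma), and these 3 were the genes lower at an unadjusted p under 0.05, against 2.53% of all probe sets. limma called 0 of the 10 genes here (0% of all probe sets). At the dimmer probe sets of Pdgfrb semi-rigid minus rigid was -0.25 and 0.11 (adjusted p = 0.926 and 0.983 from limma).

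The interaction, which sets the effect of fixation in old rats against that in young rats, was taken as the difference OSR minus OR less the difference YSR minus YR. It was negative for 9 of the 10 genes with a median of -0.74 (-0.03 over all probe sets), and limma called 0 of them (0% of all probe sets). By the brightest probe set of each gene, Actg2 was the only one at an unadjusted p under 0.05, with -1.36 (standard error 0.59, adjusted p = 0.99), against 2.37% of all probe sets negative at that level. Of the other Tpm1 probe sets, 1371240_at (2.57) and 1370287_a_at (-0.55) also passed at that level, in opposite directions, and both had an adjusted p of 0.99. The fixation differences in old and in young rats were therefore not shown to differ for any of the 10 genes.

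**Figure D2:**
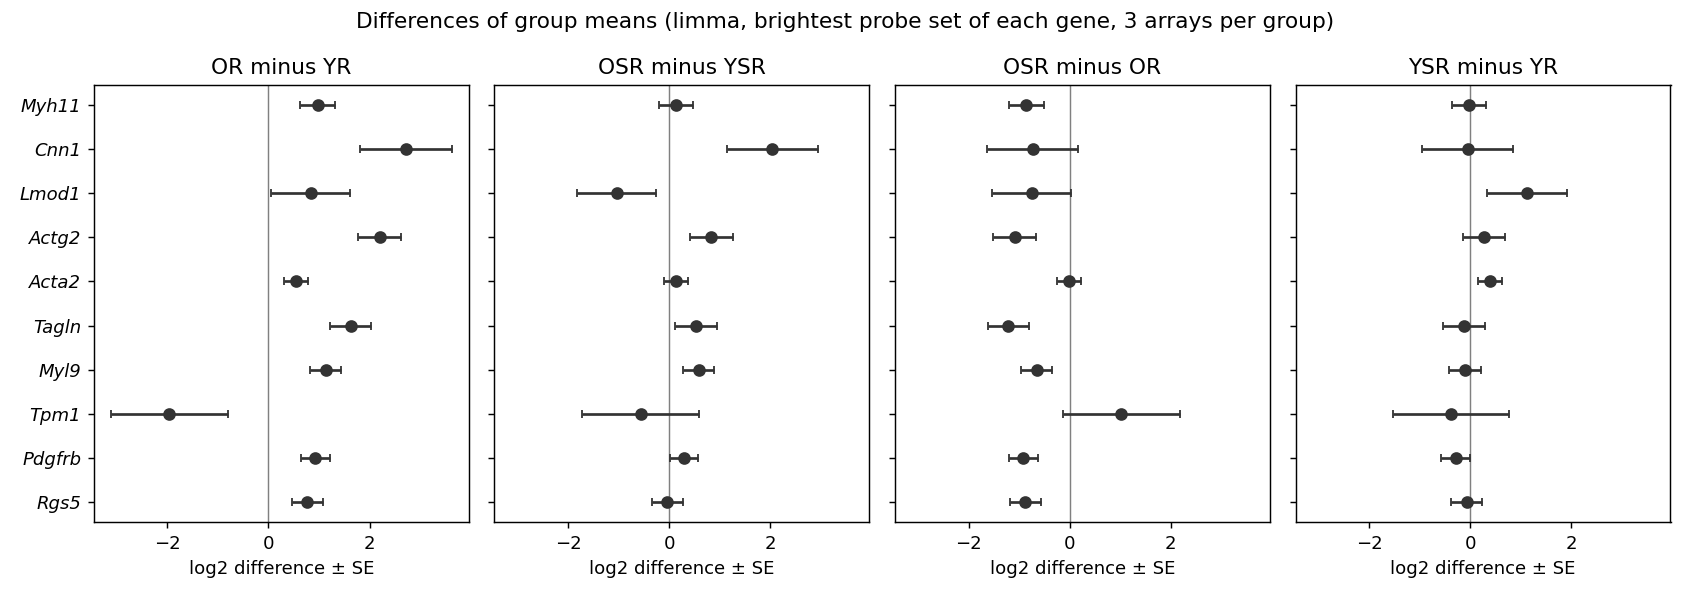
Log2 difference ± standard error (horizontal axis) for each of the 10 genes in OR minus YR, OSR minus YSR, OSR minus OR and YSR minus YR, from limma on the brightest probe set. In OR minus YR every gene but Tpm1 is right of 0, in OSR minus OR every gene but Tpm1 is left of it, and in YSR minus YR the genes range from -0.38 to 1.12, with Lmod1 farthest right.

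Tpm1 (tropomyosin 1, chromosome 8, 76516654 to 76543661) lies along actin filaments in striated, smooth and nonmuscle cells, and its gene gives different transcripts in each. Its 7 probe sets did not move together. The brightest, 1371241_x_at, whose suffix marks probes that may also match other sequences, had signals of 642, 19502 and 9863 in OSR, 11105, 541 and 2477 in OR, 15196, 5832 and 4477 in YSR, and 11086, 10269 and 7709 in YR. OSR array 1, OR array 2 and OR array 3 were the lowest of the 12 arrays. The next in brightness, 1370287_a_at, had 5426, 5320 and 3564 in OSR, 7097, 5849 and 6274 in OR, 3574, 3480 and 4333 in YSR, and 3446, 3134 and 4050 in YR. Here the 3 OR arrays were the highest of all, as for Tagln.

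The low arrays of 1371241_x_at were those with little signal from skeletal muscle genes. A list of 13 skeletal muscle genes, among them Ckm (muscle creatine kinase) and Acta1 (skeletal actin), had a mean log2 signal between 7.11 and 8.96 in OSR array 1, OR array 2 and OR array 3, and between 10.63 and 12.89 in the other 9 arrays. Of these 13 genes, 10 had their 3 lowest signals in these 3 arrays, as did 2.18% of all probe sets. At 1371241_x_at the 3 arrays lay between 9.08 and 11.27 and the others between 12.13 and 14.25 (log2), and at 1368724_a_at between 9.54 and 10.79 against 11.47 to 13.54. At 1370288_a_at the 3 arrays lay between 10.74 and 11.61 and overlapped with the other 9 (11.20 to 12.91). This probe set was lowest in OSR array 1, OR array 2 and YSR array 2. The part of skeletal muscle in these signals was not tested.

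By age, the probe sets of Tpm1 pointed in both directions. Old minus young was -1.26 at 1371241_x_at (standard error 0.82), -0.89 at 1368724_a_at (standard error 0.65) and -0.08 at 1370288_a_at (standard error 0.30), with adjusted p = 0.701, 0.733 and 0.955 from limma. For 1370287_a_at it was 0.58 (standard error 0.12, adjusted p = 0.178). In OR minus YR it was 0.86 (standard error 0.17, adjusted p = 0.207), OSR minus OR -0.45 (standard error 0.17, adjusted p = 0.901) and the interaction -0.55 (standard error 0.24, adjusted p = 0.99). Without OSR array 3 this probe set was called for old against young, with 0.68 and an adjusted p of 0.032. At 1395794_at old minus young was 0.42 (standard error 0.16, adjusted p = 0.472) and OR minus YR 0.52 (adjusted p = 0.568), and at the dim 1370513_at it was 0.52 (standard error 0.63, adjusted p = 0.845).

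The dim probe set 1371240_at stood apart from both patterns. Its signals were 58.4, 69.3 and 83.8 in OSR and 13.5, 10.2 and 36.9 in OR, against 75.6, 44.5 and 85.0 in YSR and 78.5, 86.5 and 131.0 in YR. All OR arrays were below all others. Old minus young was -1.20 (standard error 0.39, adjusted p = 0.378 in limma). Among the 7 probe sets of Tpm1 it alone was lower in old rats at an unadjusted p under 0.05. OR minus YR was -2.48 (standard error 0.55, adjusted p = 0.223), OSR minus OR 2.02 (standard error 0.55, adjusted p = 0.872), and the interaction 2.57 (standard error 0.78, adjusted p = 0.99). It was the only member probe set lower in OR than in YR at an unadjusted p under 0.05. The study named this probe set among its genes with an interaction on these same arrays.

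**Figure D3:**
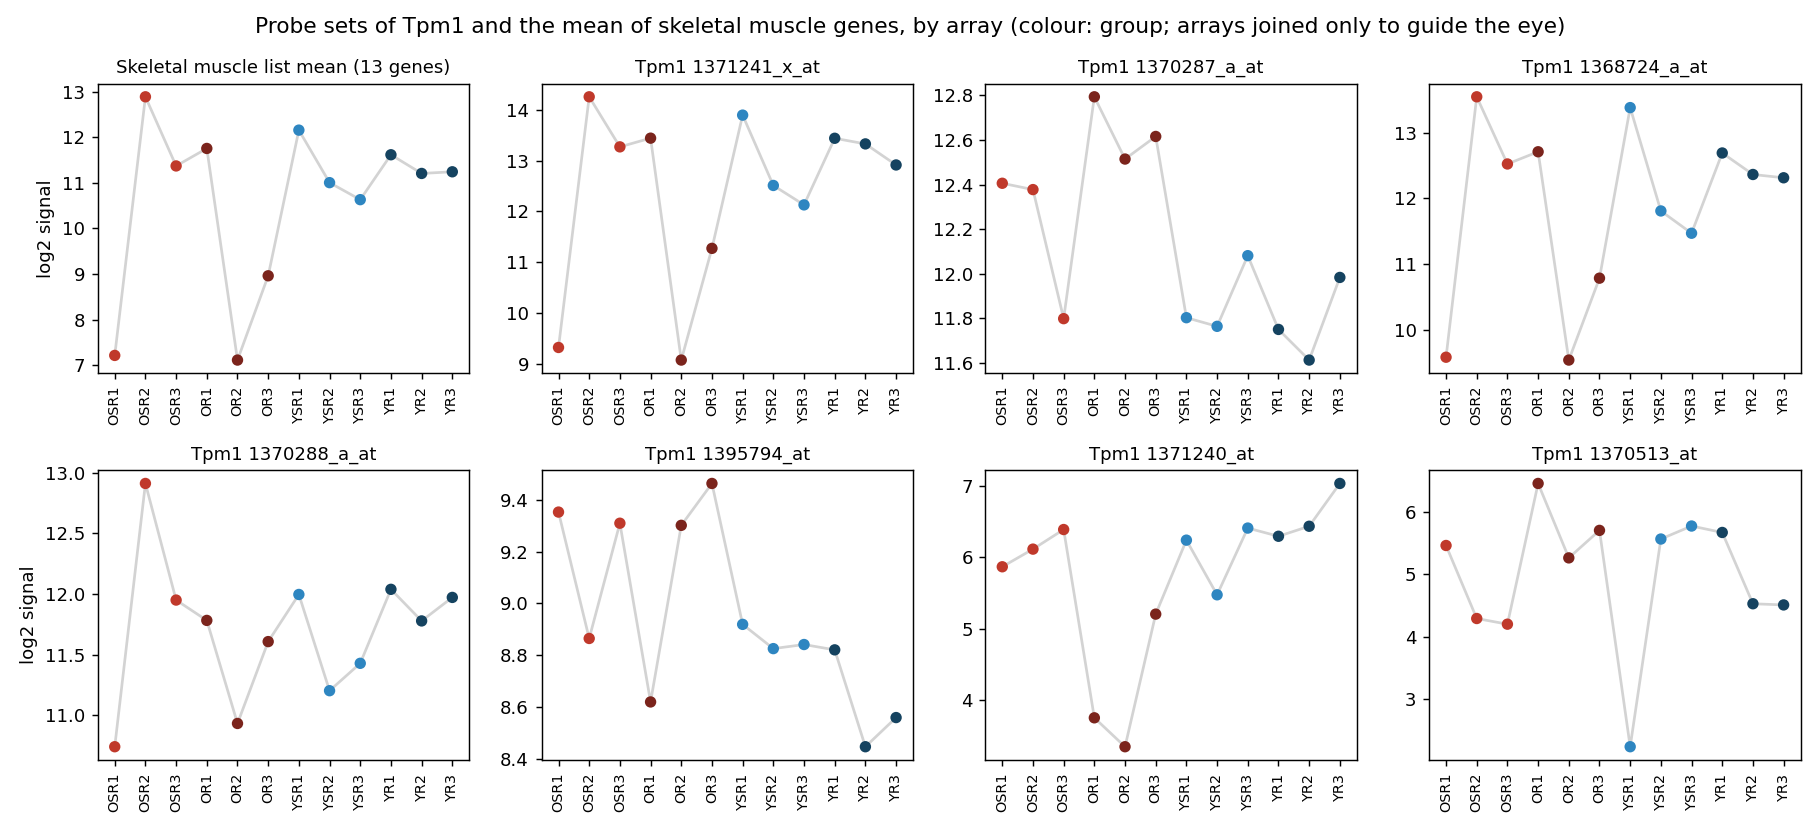
The log2 signal (vertical axis, scaled to each panel) of the mean of 13 skeletal muscle genes and of the 7 probe sets of Tpm1 on each of the 12 arrays, coloured by group. The probe sets 1371241_x_at and 1368724_a_at drop in OSR array 1, OR array 2 and OR array 3 as the skeletal muscle mean does, whereas 1370287_a_at is highest in the 3 OR arrays and 1371240_at lowest in them.

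Further genes of smooth muscle contraction leaned in both directions, with 0 called in any list described here in limma. Of 17 such genes measured (18 listed), 7 were higher and 1 lower in OR than in YR at an unadjusted p under 0.05, with a median of 0.23, against 4.8% of all probe sets higher and 3.54% lower. In old against young rats 7 were higher and 0 lower, against 4.7% and 3.89% of all probe sets. Tpm2 (tropomyosin 2) differed between old and young by 0.74 (standard error 0.15, adjusted p = 0.154) and Cald1 (caldesmon) by 0.54 (standard error 0.14, adjusted p = 0.249). Actn1 (alpha-actinin 1) differed by 0.36 and Smtn (smoothelin, of mature smooth muscle) by 0.47 (adjusted p = 0.371 and 0.485). The gene lower in OR than in YR was Des (desmin), which skeletal muscle also makes, with -1.74.

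Of 13 further pericyte genes (14 listed), 4 were higher and 1 lower in OR than in YR at an unadjusted p under 0.05, with a median of 0.40, against 4.8% and 3.54% of all probe sets. In old against young rats 6 were higher and 1 lower, against 4.7% and 3.89% of all probe sets. In the mean 9 of the 13 were higher and 4 lower, in OR minus YR as in old minus young. Of all probe sets 54.2% and 53.1% were higher in the mean in these comparisons. The soluble guanylate cyclase subunit Gucy1a1 differed between old and young by 1.22 (standard error 0.32, adjusted p = 0.258), Mcam (CD146) by 0.76 (standard error 0.21, adjusted p = 0.284) and Cspg4 (NG2) by 0.62 (standard error 0.18, adjusted p = 0.315). Anpep, an aminopeptidase, was 1 of the 4 lower in old rats by the mean, at -0.45 (adjusted p = 0.28). Among endothelial genes, 9 of 9 measured were higher in OR than in YR in the mean, 7 of them at an unadjusted p under 0.05, with a median of 0.74, while 54.2% of all probe sets were higher in the mean and 4.8% at that level. The endothelial list mean lay between 9.89 and 10.83 in OR, against 9.32 to 9.72 in YR.

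Matrix genes of myofibroblasts and fibroblasts were higher in OR than in YR in the mean for 13 of 14 genes, 8 of them at an unadjusted p under 0.05, with a median of 0.50, while 54.2% of all probe sets were higher in the mean and 4.8% at that level. Ccn2, the connective tissue growth factor, differed between old and young by 1.06 (standard error 0.22, adjusted p = 0.164) and Thy1, a surface protein of fibroblasts, by 0.84 (standard error 0.25, adjusted p = 0.325). Bgn (biglycan) differed by 0.39 (adjusted p = 0.434). For Fap, a surface protease of activated fibroblasts, semi-rigid minus rigid was -0.55 (standard error 0.17, adjusted p = 0.845). The list mean was between 13.01 and 13.26 in OR, 12.30 and 12.89 in YR, 12.43 and 13.21 in OSR, and 12.61 and 12.67 in YSR.

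Genes upstream of contraction were counted in the same way. The shares of all probe sets at an unadjusted p under 0.05 were 4.8% higher and 3.54% lower in OR minus YR. In old minus young they were 4.7% and 3.89%. With so few genes per list, a count of 0 does not depart from these shares. Of 8 measured genes for serum response factor and its cofactors, each by its brightest probe set, 0 passed an unadjusted p under 0.05 in OR minus YR (median -0.18) or in old minus young (median -0.12). The brightest of 3 probe sets of Srf had log2 means of 9.94 ± 0.09 in OSR, 10.01 ± 0.16 in OR, 9.98 ± 0.26 in YSR and 9.94 ± 0.25 in YR (SD, n = 3 each). The next, 1374829_at, had 8.05 ± 0.09 in OSR, 7.48 ± 0.21 in OR, 7.66 ± 0.70 in YSR and 7.55 ± 0.17 in YR, with an interaction of 0.45 (standard error 0.44, adjusted p = 0.99 in limma). The very dim 1395378_at had 4.44 ± 1.65 in OR and 1.47 ± 0.37 in YR, with an OR minus YR of 2.97 (adjusted p = 0.508). The study gave the name of serum response factor to a probe set with an interaction on these arrays that has the symbol Kcnc4 in the annotation used here. That probe set, 1391369_at, was dim, with means of 6.91 ± 0.41 in OSR, 6.18 ± 0.47 in OR, 7.12 ± 0.19 in YSR and 5.69 ± 1.46 in YR, with -0.70 for the interaction (standard error 0.86, adjusted p = 0.99 in limma). Here OSR minus OR was 0.73 and YSR minus YR 1.43. The study's fold changes have the opposite sign of interaction, with a rise under semi-rigid fixation in old rats and none in young rats. The study's methods name PLIER summaries, which were not used here. Myocd (myocardin, the cofactor of mature smooth muscle) was dim, with means from 5.23 to 5.86. In the RhoA and ROCK pathway, which raises the phosphorylation of the myosin light chain, 0 of 9 genes passed in either comparison, and the medians were 0.04 and -0.02. Among 10 genes of the TGF-beta and PDGF families (ligands, receptors and the signal transducer Smad3), 0 passed in OR minus YR, and 2 were higher and 2 lower in old than in young rats. Smad3 was 1 of those lower, at -0.51 (adjusted p = 0.474), and Pdgfra the other. Those higher were Tgfbr1 at 0.26 and Tgfb2 at 0.37 (adjusted p = 0.52 and 0.528 from limma). Tgfb1 was higher with semi-rigid fixation in the means by 1.90 (standard error 0.48, adjusted p = 0.818), and Pdgfra, a receptor of fibroblasts, had an old minus young of -0.56 (standard error 0.18, adjusted p = 0.371).

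**Figure D4:**
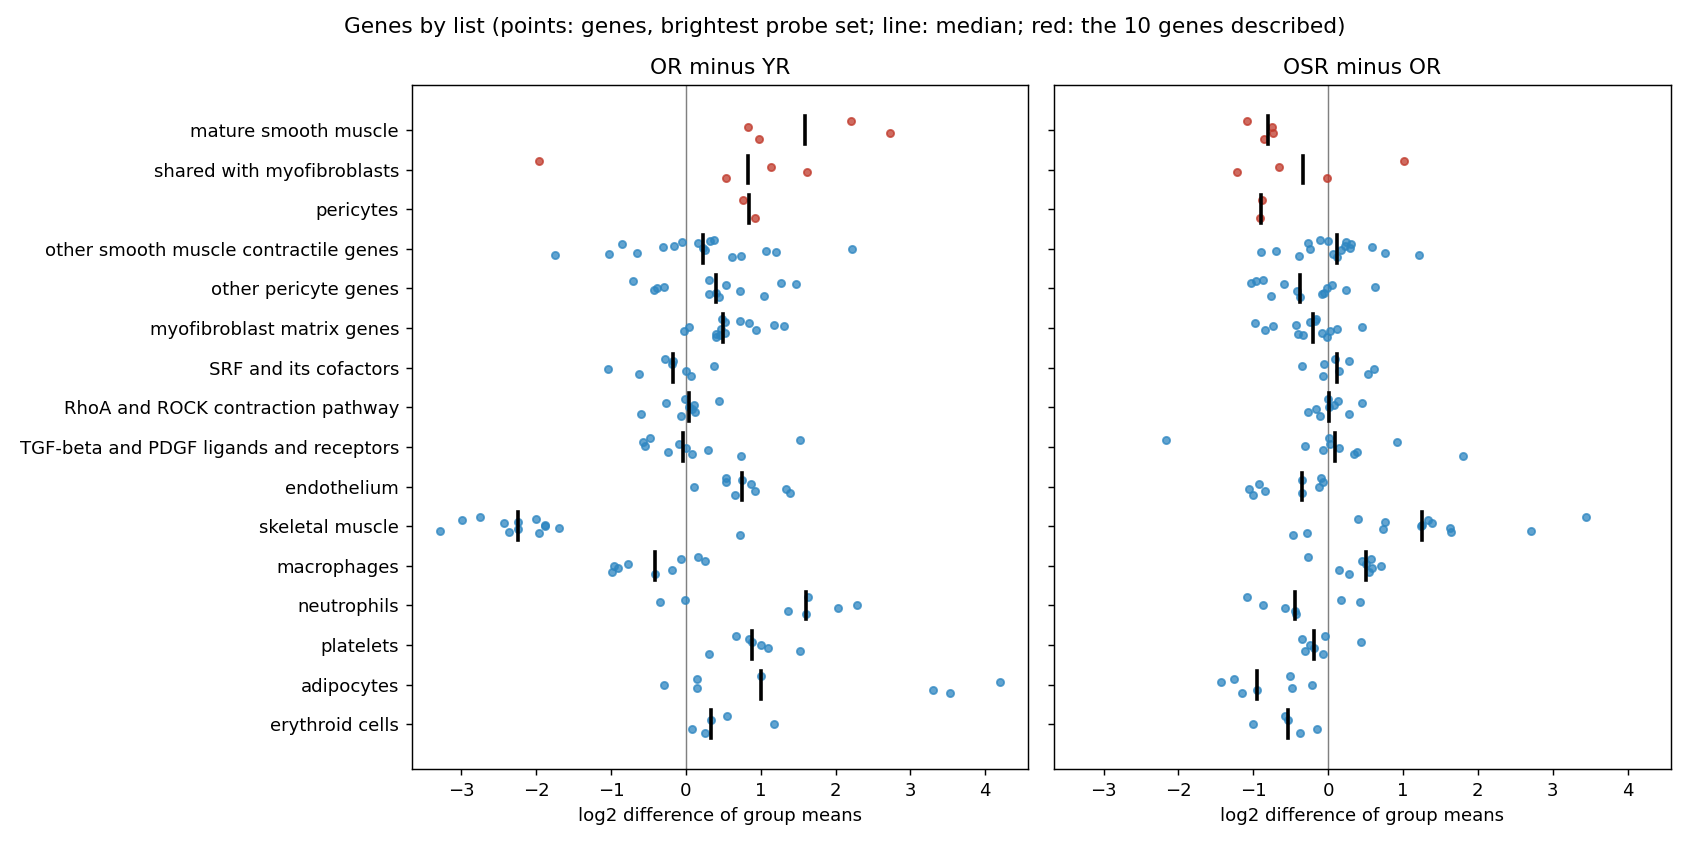
Log2 differences (horizontal axis) of single genes (points) and the median of each list (black line) for OR minus YR and OSR minus OR, with the 10 genes described in red. The medians for OR minus YR are 1.59 for mature smooth muscle, 0.84 for the genes shared with myofibroblasts and 0.85 for pericytes, against -2.24 for skeletal muscle and -0.42 for macrophages.

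Lists of other cell types were counted against the same shares of all probe sets, 4.8% higher and 3.54% lower in OR than in YR at an unadjusted p under 0.05. In the macrophage list 0 genes were higher and 4 of 9 lower in OR than in YR at an unadjusted p under 0.05 (median -0.42), with a list mean of 11.13 to 11.97 in OR, against 11.91 to 12.09 in YR. The 7 platelet genes had a median of 0.88 with 0 at that level, and a list mean of 9.74 to 10.81 in OR, against 8.76 to 10.85 in YR. Of 7 neutrophil genes 5 were higher (median 1.61), with 9.64 to 11.76 in OR, against 8.50 to 10.66 in YR. Adipocyte genes had 4 of 7 higher (median 1.00), with 9.11 to 9.85 in OR, against 7.39 to 8.35 in YR. The 5 erythroid genes had a median of 0.33 with 0 at that level, and 12.86 to 13.46 in OR, against 12.33 to 13.18 in YR. Of 13 skeletal muscle genes 0 were lower at that level and 1 was higher, the myosin heavy chain gene Myh1 with 0.73 (adjusted p = 0.493 from limma), although 12 of the 13 were lower in OR in the mean (median -2.24), with list means of 7.11 to 11.75 in OR, against 11.20 to 11.61 in YR. The part of these cell types in the differences of the smooth muscle and pericyte genes was not tested.

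The genes most like 3 of the members over the 12 arrays were sought among 9562 other genes whose mean reached the median of all probe sets, as a description by Pearson's r. Arrays of a group share their treatment, so that a difference between groups enters each r. For Acta2 they were Smtn (0.91), Plat (tissue plasminogen activator, 0.89), Col5a3 (a collagen V chain, 0.89), S1pr3 (a sphingosine 1-phosphate receptor, 0.87) and Hdac7 (a histone deacetylase, 0.87). For Myh11 they were Serpine2 (a protease inhibitor, 0.93), Ndnf (a secreted neuron-derived factor, 0.93), Tmem119 (0.92), Gal (galanin, 0.92) and Reck (an inhibitor of metalloproteinases, 0.92). For Rgs5 they were Fbln5 (fibulin 5, of elastic fibres, 0.95), Zfp275 (a zinc finger protein, 0.89), Ccdc51 (0.88), Serpine2 (0.88) and Hdhd2 (0.88). Serpine2 was the only gene on 2 of the 3 lists.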

How the data were processed

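RNA from the hematoma of 4 groups of rats (3 arrays each, with the RNA of 3 animals on an array) was hybridised to 1-colour Affymetrix arrays. The authors deposited a linear intensity for each of 31099 probe sets, scaled to a common trimmed mean per array, and the processing notes name GCOS 1.2. PLIER summaries, named in the study's methods, were not used here. The number of arrays limits the precision.

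Signals under 1 were set to 1 before log2 was taken, and 57 control probe sets were left out. In the platform annotation 20832 probe sets had 1 gene symbol, 436 several and 9831 none, and gene IDs tied 20764 of the first kind to RefSeq (GRCr8). All 12 arrays were fitted with 1 mean per group in limma 3.58.1 (moderated variances that follow the intensity) under R 4.3.3, data.table being version 1.17.8. P-values were adjusted over 31042 probe sets. The code was tested on simulated data. Summaries and plots used Python 3.11.15 (pandas 2.3.3, numpy 2.4.6, matplotlib 3.10.9).

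The 10 genes and all gene lists were chosen with earlier results of these data known. Differences were printed for every gene in old minus young, and otherwise at an unadjusted p under 0.05, apart from Lmod1 and the dimmer probe sets of Pdgfrb and Myh11. At most 4 genes of each further list at that level by age, fixation or interaction were named, and 5 genes by likeness to each of Acta2, Myh11 and Rgs5. Des, Ckm, Acta1, Myh1, Srf, Kcnc4, Tgfb2 and Myocd were named in addition, after their values had been seen. Alternatives were quantile normalization, a pseudocount of 16, no dim probe sets, no trend, the arrays of a pair alone, the methods' t-test, replicate numbers as a block, and 1 array fewer, each in turn.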

Additional observations from a re-analysis of the deposited data

How the results depend on the processing

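After adjustment, 0 of the 10 genes were called in each of the 7 comparisons, and 1 (Actg2) was called for OR minus YR with only the arrays of the pair, and the count lay between 0 and 1 for OR minus YR and for old minus young when each array was left out in turn, with 1 without OSR array 3. Every other alternative gave 0 calls. At an unadjusted p under 0.05, the 8 genes higher in OR than in YR were 4 with the methods' t-test and 4 to 8 when arrays were left out. The 5 genes lower in OSR than in OR were 0 with the methods' t-test, 3 without the arrays of highest Gapdh ratio and 2 to 6 when arrays were left out. The 6 genes higher in old than in young rats were 5 to 7 throughout. The shares of all probe sets at that level are not given for the alternatives, the replicate block below included. Of 922 recomputed values of 48 differences of the 10 genes, 913 kept their direction. The 48 were old minus young of each probe set, OR minus YR and OSR minus OR of Lmod1, and differences already at an unadjusted p under 0.05. Most alternatives also share most arrays with the main fit, so that a kept direction was likely beforehand. The 9 that reversed concerned old minus young of Lmod1, which was 0.0189 without the arrays of highest Gapdh ratio, 0.10 without YR array 3 and 0.41 without OSR array 3 (-0.47 to 0.41 over the arrays left out), of OSR minus OR of Lmod1, which was 0.28 without OSR array 3 (-1.49 to 0.28), of old minus young of the Tpm1 probe set 1370288_a_at, which was 0.20, 0.0451 and 0.0315 without OSR array 1, OR array 2 and YSR array 1 (-0.34 to 0.20), and of the Tpm1 probe set 1370513_at, which was -0.0567 without YSR array 1 (-0.0567 to 0.83) and -0.22 without the arrays of highest Gapdh ratio. The cause was not tested. Dim genes (Cnn1 and Lmod1) gave no value when dim probe sets were left out.

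Arrays of the same replicate number were not paired. When each array was taken relative to its group mean, 18 pairs with a shared number correlated at a median of 0.019 (lowest -0.41, highest 0.41), and 36 pairs without one at 0.020. With the replicate block, 0 genes were called in each comparison, and 8, 7 and 5 genes passed at an unadjusted p under 0.05 in OR minus YR (higher), old minus young (higher) and OSR minus OR (lower).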

Other observations

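Another 5 probe sets carried the symbols of both Acta2 and Actc1 (cardiac actin) in the platform annotation and were left out of the 10 genes. Their log2 signals varied far more than those of the single Acta2 probe set, from 7.84 to 13.57 at 1370856_at and from 4.28 to 12.02 at 1374352_at over the 12 arrays. Both were highest in YR array 1 and lowest in OR array 2. OR minus YR was negative at 4 of the 5, with -1.89 at 1370856_at, -2.66 at 1374352_at, -2.42 at 1374353_x_at and -1.72 at 1385797_at, and was 1.21 at 1381861_x_at, the dimmest. None of the 5 passed at an unadjusted 0.05 in limma. The gene that gave these signals cannot be named from the annotation.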
